A study of Mus musculus with 6 samples.

Results

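Ahr encodes the aryl hydrocarbon receptor (AhR) and lies on mouse chromosome 12 (chr12:35497974-35535038, GRCm38, the build called mm10). The genes described here are 40 genes of the same chromosome that lie between 10 and 20 Mb from Ahr, 24 on the low-coordinate side, from Trib2 to Kidins220, and 16 on the high-coordinate side, from Prkd1 to Psma6. They are 40 of 23420 genes in the count table, and 31 further genes of the same stretches are not in the list. The members were chosen by position, with the Ahr-/- over Ahr+/+ differences in normalized read count of these same libraries already known, so every genotype value of a member below is a description and no call on a member supports anything.

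B cells were purified from the spleens of C57Bl/6J background mice, 3 of them Ahr+/+ and 3 Ahr-/-, and activated for 8 h in medium holding α-IgM (10 µg/ml) and IL-4 (20 ng/ml), and both genotypes received the AhR ligand FICZ (250 nM) over the last 4 h. α-IgM cross-links the B-cell receptor, IL-4 is a helper T-cell cytokine that acts on B cells, and FICZ is a tryptophan photoproduct that binds AhR with high affinity. The Ahr-/- mice carried the germline allele of the B6.129-Ahr tm1Bra/J strain, so AhR was missing from every cell of the animal, and the study used mice from 8 weeks of age that were matched for age and gender. The labels do not say whether Ahr+/+ and Ahr-/- mice were littermates. No sample without FICZ or without activation was part of the comparison. A gene could be read as lower because its RNA was lower in each cell or because fewer of the cells that carry it were present, and bulk RNA does not tell these apart.

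AhR is a cytosolic transcription factor that moves to the nucleus after ligand binding, pairs with ARNT and binds DNA elements with the core GCGTG, for example in front of Cyp1a1, the cytochrome P450 gene most used to read out its activity. A knockout made by gene targeting in stem cells of one mouse strain and then crossed onto another brings with it a stretch of donor DNA on both sides of the targeted gene, which recombination shortens with each generation. Genes on that stretch can carry strain differences that travel with the targeted allele. Loss of AhR and linked DNA of donor origin cannot be told apart by comparing these genotypes, and the span of any such stretch in these mice was not tested.

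The genotype labels were checked on Ahr and Cyp1a1. Ahr had 12680, 12890 and 13950 normalized counts in the Ahr+/+ mice and 8856, 8949 and 9717 in the Ahr-/- mice (edgeR quasi-likelihood test, log2 fold change -0.52, adjusted p = 7.1e-06). Transcripts of the targeted allele were thus still counted. Cyp1a1 had 4973, 5437 and 5327 normalized counts in Ahr+/+ and 6.87, 2.84 and 6.38 in Ahr-/- cells (edgeR quasi-likelihood test, log2 fold change -10.04, adjusted p = 1.6e-14). Normalized counts are counts adjusted for library size with TMM factors, on the scale of an average library. Total counts ran from 34402709 to 40065169 in Ahr+/+ and from 22095096 to 53648787 in Ahr-/- libraries, so that 3 counts, used as the lowest level that can be read, stood for 0.0559 to 0.136 CPM (counts relative to a TMM-adjusted library total). The limit of 3 counts covers counting error only.

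The upstream DNA of the members is shown first, for those members that were called in every one of the 6 fits that left out 1 library and whose window holds at most 4 bases of an annotated exon. The windows are the 250 bases before the annotated start, taken from RefSeq on GRCm38.p6 and written 5′ to 3′ on the gene's own strand, with the AhR core GCGTG, or CACGC where it lies on the other strand, in capitals. Lpin1 (chr12:16610967-16611216, minus strand), 1700030C10Rik (chr12:20815780-20816029, minus strand), Ap4s1 (chr12:51690716-51690965, plus strand) and Arhgap5 (chr12:52515827-52516076, plus strand) have no match in their window. The Arhgap5 window lies within the span GENCODE gives the gene but outside its exons. Strn3 (chr12:51691915-51692164, minus strand) has 2 and Grhl1 (chr12:24572037-24572286, plus strand, the first of its 2 annotated starts) has 1.
Lpin1: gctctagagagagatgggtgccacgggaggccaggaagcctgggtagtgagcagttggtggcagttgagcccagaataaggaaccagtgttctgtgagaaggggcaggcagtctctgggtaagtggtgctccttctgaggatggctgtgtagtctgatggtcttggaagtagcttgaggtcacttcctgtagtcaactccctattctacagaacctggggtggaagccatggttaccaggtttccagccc
1700030C10Rik: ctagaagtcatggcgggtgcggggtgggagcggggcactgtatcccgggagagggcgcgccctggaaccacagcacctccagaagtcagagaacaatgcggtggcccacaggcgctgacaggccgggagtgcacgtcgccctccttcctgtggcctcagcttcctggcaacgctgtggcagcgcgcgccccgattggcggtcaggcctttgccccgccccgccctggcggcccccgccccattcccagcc
Grhl1: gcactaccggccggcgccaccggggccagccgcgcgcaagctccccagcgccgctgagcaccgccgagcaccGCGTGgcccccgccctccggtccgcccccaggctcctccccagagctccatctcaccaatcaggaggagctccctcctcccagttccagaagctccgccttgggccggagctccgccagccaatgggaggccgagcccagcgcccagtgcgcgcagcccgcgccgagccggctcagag
Strn3: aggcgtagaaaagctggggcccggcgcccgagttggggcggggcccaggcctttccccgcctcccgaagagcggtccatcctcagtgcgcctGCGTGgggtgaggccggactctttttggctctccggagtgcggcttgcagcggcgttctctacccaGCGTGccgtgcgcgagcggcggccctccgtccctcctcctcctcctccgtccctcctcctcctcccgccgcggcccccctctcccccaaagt
Ap4s1: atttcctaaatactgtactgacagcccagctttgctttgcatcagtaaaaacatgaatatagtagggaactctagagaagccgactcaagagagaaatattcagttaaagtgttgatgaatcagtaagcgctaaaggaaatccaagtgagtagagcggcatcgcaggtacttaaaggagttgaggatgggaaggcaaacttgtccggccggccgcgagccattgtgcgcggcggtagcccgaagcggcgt
Arhgap5: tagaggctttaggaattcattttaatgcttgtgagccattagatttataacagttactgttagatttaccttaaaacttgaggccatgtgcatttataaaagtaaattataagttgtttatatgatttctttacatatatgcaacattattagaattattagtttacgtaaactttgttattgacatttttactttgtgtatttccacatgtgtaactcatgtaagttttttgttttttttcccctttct

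Windows were found for 38 of the 40 members, 41 windows in all because Greb1, Grhl1 and Psma6 have 2 annotated starts each. GCGTG or CACGC was present in 22 of the 41 windows (53.7%), against 9250 of all 32851 mouse windows of that length (28.2%). The windows of the members were richer in G and C, with a median of 64.0% against 52.4% in all windows, and the core itself holds a CG pair. The longer form TNGCGTG, searched on both strands, was in 0 of 41 windows and in 4.1% of all windows. GCGTG is also one form of the core bound by the hypoxia-inducible factors, which pair with ARNT too, so the letters are not particular to AhR. Of the 13 members called between genotypes, 6 had a core in a window, among them Rock2 with 4 and Odc1 and G2e3 with 3 each. A match is a description of these letters and no sign of binding.

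The members were expressed over a wide range in the Ahr+/+ cells. Levels are given as CPM per kilobase of exon, taking all annotated exons of a gene together. Odc1 (ornithine decarboxylase, the first enzyme of polyamine synthesis) was the highest at 253 ± 3.5 (SD, n = 3). Psma6, an alpha subunit of the 20S proteasome, followed at 191 ± 7.4, and Ywhaq, the 14-3-3 protein theta, at 109.5 ± 3.1, with 13240, 12520 and 12880 normalized counts in Ahr+/+ and 12920, 12770 and 12060 in Ahr-/- mice. Nol10, a nucleolar protein of ribosome assembly, was at 45.9 ± 0.96. Baz1a, a subunit of chromatin remodelling complexes, was at 39.3 ± 0.57. These 5 levels did not overlap between any neighbours in the order. Over the whole order, 20 of the 33 neighbouring pairs of tested members had separate ranges over the 3 Ahr+/+ mice and 13 overlapped. The ranges of Ap4s1 (25.1 ± 0.67) and Snx6 (24.5 ± 1.0), for example, overlapped. Strn3, Eapp, Cfl2, Trib2 and Itgb1bp1 formed a run of overlapping neighbours between 10.1 and 8.48. The ranges cover the spread over mice only, and an error in exon length would be the same in every mouse. The order is thus a description, and separate ranges do not establish that neighbouring genes differ in level. At the low end of the readable members stood Asap2 at 1.01 ± 0.060, Klf11 at 0.826 ± 0.047 and 1700030C10Rik at 0.554 ± 0.077.

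**Figure D1:**
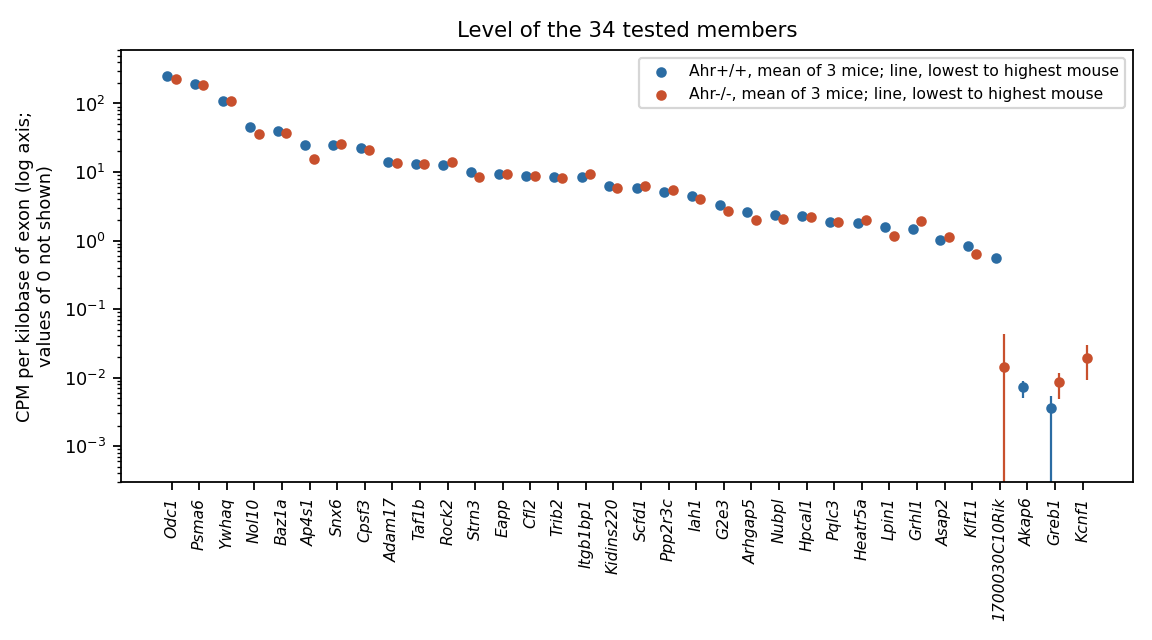
Level of each of the 34 tested members in CPM per kilobase of exon (log axis), ordered by the Ahr+/+ mean; points are means of 3 mice, lines run from the lowest to the highest mouse, and values of 0 are not drawn. Odc1 is at the left with 253 in Ahr+/+ and 230.0 in Ahr-/- cells, and Akap6, Greb1 and Kcnf1 at the right have means below 0.02 in both genotypes.

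Of the members, 6 could not be tested because they had fewer than 10 counts over all libraries. Ntsr2 (a neurotensin receptor), Cys1 (a protein of the primary cilium) and Prkd1 (protein kinase D1) had 0 counts in each library, which allows up to 0.013 CPM over the 230702448 counts of all 6. Atp6v1c2, a subunit of the vacuolar proton pump, had 1, 1 and 1 counts in Ahr+/+ and 1, 0 and 0 in Ahr-/- mice. Mboat2, a lysophospholipid acyltransferase, had 0, 0 and 1 against 1, 2 and 2, and Coch, which encodes cochlin, had 2, 1 and 0 against 3, 0 and 0. These 6 genes were left out of the main fit, so whether they differed between genotypes was not tested there. Greb1, a gene known for its response to oestrogen receptor, was tested with 2, 2 and 0 counts against 2, 6 and 2, and its groups overlapped.

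Of the 34 members tested, 13 were called between genotypes at an adjusted p under 0.05 in the edgeR quasi-likelihood fit over all 13682 genes tested, where 17.9% of genes were called. Of these, 9 were lower in Ahr-/- cells (8.13% of all genes tested) and 4 were higher (9.79% of all genes tested). The count of higher members was 2 with the DESeq2 Wald test, with a replicate block and without Ahr+/+ replicate 3, Ahr-/- replicate 2 or Ahr-/- replicate 3, and 1 at an adjusted p under 0.01. The values of the 3 Ahr+/+ and 3 Ahr-/- mice did not overlap in 19 of the 34 members, against 33.5% of all genes tested, and the 13 called genes were all among these 19. Since the list was drawn up with this comparison known, nothing is read from these shares. Most differences were small. The median log2 fold change of the 34 members was -0.06, against 0.00 over all genes tested, and the median size regardless of sign was 0.15 against 0.11. With the 3 members whose counts in 1 genotype were at or under the limit of 3 per library (Greb1, Kcnf1 and Akap6) placed at their bounds, these medians were -0.06 and 0.14.

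**Figure D2:**
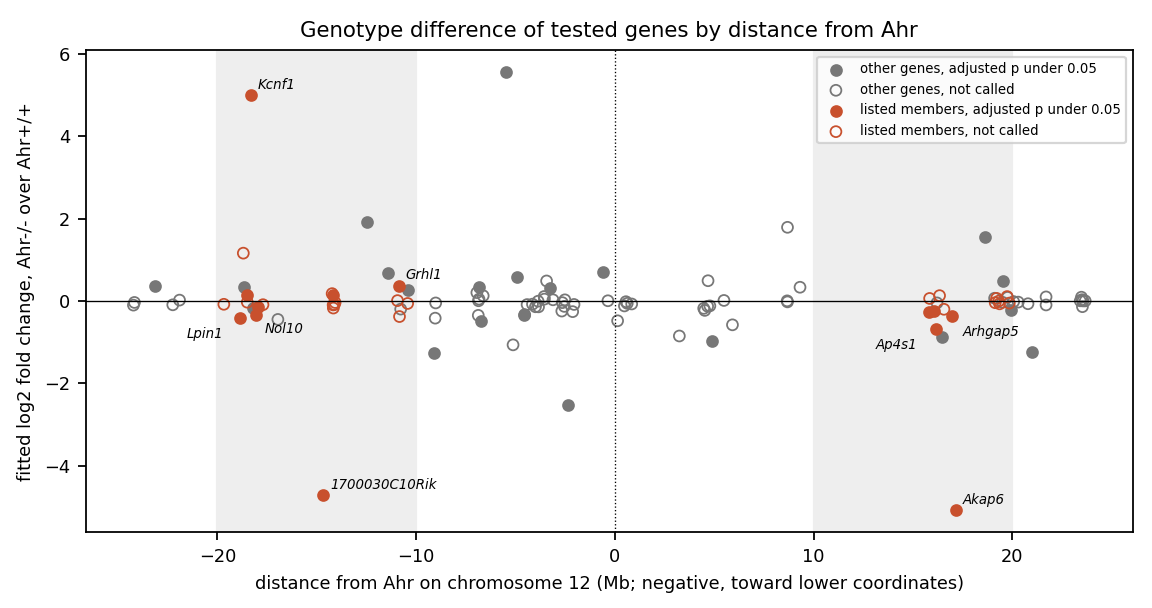
Fitted log2 fold change (Ahr-/- over Ahr+/+) of tested genes against the distance from Ahr on chromosome 12 in Mb; orange points are the listed members, grey points other genes, filled points have an adjusted p under 0.05, and the shaded bands mark 10 to 20 Mb. Most filled orange points lie between -0.68 and 0.36, and the outlying Kcnf1, Akap6 and 1700030C10Rik have at most 6 counts in any library of at least 1 genotype, so their height depends on the prior count of the fit.

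Among the members with catalytic roles in lipid and polyamine metabolism, Lpin1 and Odc1 were called lower in Ahr-/- cells, 2 of 3 tested, beside 8.13% of all genes tested. Lpin1 encodes lipin 1, which makes diacylglycerol from phosphatidic acid and also acts in the nucleus as a coregulator of transcription (chr12:16535669-16610966, minus strand, 18.89 Mb from Ahr). It had 566, 604 and 582 normalized counts in Ahr+/+ and 451, 448 and 417 in Ahr-/- mice. All 3 Ahr-/- mice lay below the lowest Ahr+/+ mouse, with a log2 fold change of -0.42 (SE 0.065). Odc1 (chr12:17544794-17551505) had 33510, 32620 and 33250 against 30170, 30750 and 29400. The groups were separate but the difference was narrow, at -0.14 (SE 0.033). Iah1, an esterase of the same group, had 458, 474 and 428 against 458, 386 and 381, so that the first Ahr-/- mouse lay within the Ahr+/+ range and the gene was not called.

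Nol10, at 18.07 Mb on the low-coordinate side (chr12:17348458-17430095, plus strand), had 5200, 5362 and 5415 normalized counts in Ahr+/+ mice and 4191, 4294 and 4101 in Ahr-/- mice. The gap between the groups was several times the spread within either, and the log2 fold change was -0.34 (SE 0.038). Grhl1, a grainyhead-like transcription factor best known from epithelia (chr12:24572283-24617391), went the other way. It had 347, 300 and 306 counts in Ahr+/+ and 412, 417 and 397 in Ahr-/- cells, with a log2 fold change of 0.36 (SE 0.081). These were the only called genes among the 8 members that act in transcription, chromatin or RNA processing, beside 17.9% of all genes tested. Klf11, a Krüppel-like repressor and the next gene of the list after Grhl1, had 134, 147 and 133 against 92.7, 112 and 109. Its groups were separate but it was not called, with -0.38 (SE 0.13). Cpsf3, the endonuclease that cleaves pre-mRNA before polyadenylation, had 4572, 4468 and 4552 against 4056, 4383 and 4291, also separate and not called. Taf1b, of the RNA polymerase I initiation complex, had 1314, 1311 and 1325 in Ahr+/+ cells, within the Ahr-/- range of 1286 to 1366. Baz1a and Eapp, an E2F-associated phosphoprotein, overlapped between genotypes.

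In the group of kinases, phosphatase subunits and signalling adaptors, 4 of 9 tested members were called, 2 in each direction, beside the 17.9% of all genes tested (8.13% lower, 9.79% higher). Rock2, a kinase that drives actomyosin contraction (chr12:16894895-16987823), had 6753, 6369 and 6853 normalized counts in Ahr+/+ and 7514, 7311 and 7497 in Ahr-/- mice. The Ahr-/- mice were higher without overlap, at 0.16 (SE 0.039). Itgb1bp1, which binds the tail of integrin beta 1, had 1206, 1127 and 1125 against 1244, 1316 and 1289, a difference of 0.16 (SE 0.048). The highest Ahr+/+ mouse came close to the lowest Ahr-/- mouse, and the call was lost in 4 of the 6 edgeR fits without 1 library, those without Ahr+/+ replicate 2 or 3 or Ahr-/- replicate 2 or 3 (adjusted p from 0.076 to 0.18). Itgb1bp1 overlaps Asap2 and Cpsf3 on the other strand, and whether the counting used strand is not given in the sources used here.

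Strn3, a striatin that serves as a regulatory subunit of the phosphatase PP2A, and Ap4s1, the small subunit of the AP-4 adaptor complex of the trans-Golgi network, start head to head on the high-coordinate side (chr12:51609632-51691897, minus strand, and chr12:51691033-51744786, plus strand) and overlap at their 5′ ends. Ap4s1 had 1110, 1114 and 1061 normalized counts in Ahr+/+ and 657, 686 and 698 in Ahr-/- mice. Among members with an Ahr+/+ mean of 100 or more normalized counts this was the largest difference, at -0.68 (SE 0.052), and it ran from -0.71 to -0.66 over the fits without 1 library. Strn3 had 2718, 2377 and 2615 against 2192, 2076 and 2230, a log2 fold change of -0.25 (SE 0.052). The Ap4s1 window printed above lies inside Strn3 and the Strn3 window lies inside Ap4s1.

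Arhgap5, the GTPase-activating protein p190-B (chr12:52503972-52571975), had 980, 1112 and 1150 normalized counts in Ahr+/+ and 910, 885 and 728 in Ahr-/- mice. All Ahr-/- values were lower, and Ahr-/- replicate 3 lay furthest down. The log2 fold change was -0.37 (SE 0.084). Of the other small-GTPase and actin genes, Asap2, which acts on ARF GTPases, had 252, 283 and 274 against 290, 308 and 315 and was not called, and Cfl2, the cofilin of muscle, had 1209, 1019 and 1098 against 1140, 1073 and 1123, fully overlapping.

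G2e3, an E3 ubiquitin ligase named for its expression in G2, was the tested member nearest to Ahr on the high-coordinate side (chr12:51348061-51376986, 15.81 Mb). It had 1072, 904 and 1013 normalized counts in Ahr+/+ and 796, 839 and 861 in Ahr-/- mice. The groups were separate by a small margin, at -0.26 (SE 0.066), and the call was kept in 2 of the 6 edgeR fits without 1 library. It was lost without Ahr+/+ replicate 1 or 3 or Ahr-/- replicate 1 or 2 (edgeR adjusted p from 0.053 to 0.075). Nubpl, which assembles iron-sulphur clusters of mitochondrial complex I, had 466, 415 and 454 against 391, 383 and 389. It was not called, with -0.20 (SE 0.072), but was called at -0.25 without Ahr+/+ replicate 2 (edgeR adjusted p = 0.046). Psma6 had 9320, 8663 and 9209 against 9043, 8783 and 8477, and its groups overlapped.

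Among the called members, 3 were at very low levels in at least 1 genotype. 1700030C10Rik, a processed transcript without an annotated protein product (chr12:20804381-20815779), had raw counts of 44, 33 and 31 in Ahr+/+ mice but 0, 4 and 0 in Ahr-/- mice. It was thus read in every Ahr+/+ mouse and in 1 Ahr-/- mouse, and its log2 fold change of -4.72 (SE 0.53) ranged from -8.09 to -4.13 over the fits without 1 library and was -3.58 with a larger prior count of 2, so its size is not fixed by these counts. GENCODE places 2 overlapping models under this symbol, and reads of the locus could be split between them. Akap6, which anchors protein kinase A at the nuclear envelope of muscle and nerve cells, had 3, 5 and 4 raw counts against 0, 0 and 0, at least 1.24-fold lower in Ahr-/- cells when the floor of 3 counts per library is used. Kcnf1, a modifier subunit of voltage-gated potassium channels, had 0, 0 and 0 against 1, 5 and 6, at least 1.16-fold higher in Ahr-/- cells on the same floor. Both sit near the counting limit. Akap6 lost its call without Ahr-/- replicate 2 (edgeR adjusted p = 0.054) and fell under the count minimum without any of the Ahr+/+ libraries. Kcnf1 lost its call without Ahr+/+ replicate 1 or 3 (edgeR adjusted p of 0.053 and 0.055) and fell under the minimum without Ahr-/- replicate 2 or 3.

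**Figure D3:**
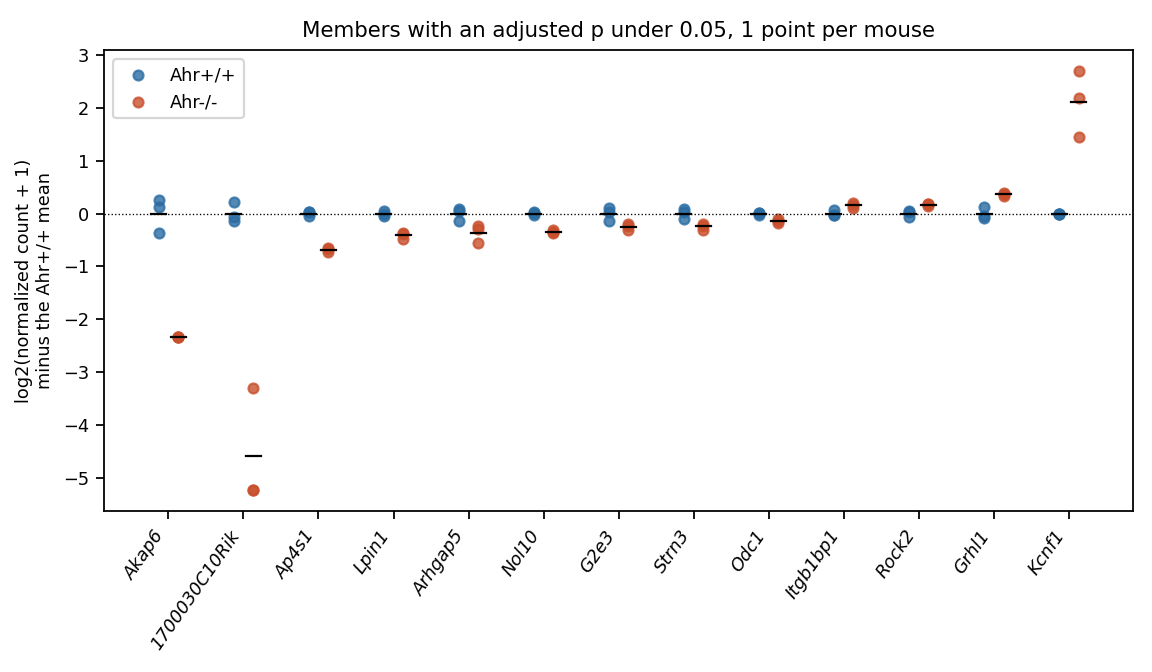
Each of the 13 called members in each mouse, as log2 (normalized count + 1) minus the Ahr+/+ mean, 1 point per mouse with blue for Ahr+/+ and orange for Ahr-/-; black bars are means of 3 mice. The mice of the genotypes do not overlap in any of the 13, but for Odc1, Itgb1bp1 and Rock2 the bars are within 0.2 of each other.

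The 21 tested members that were not called included 20 with an Ahr+/+ mean of 100 or more normalized counts, whose log2 fold changes lay between -0.38 and 0.18 with standard errors of 0.037 to 0.13. Separate groups without a call were seen in 6 of the 21, Asap2, Cpsf3, Klf11, Scfd1, Heatr5a and Nubpl, beside 19.3% of the 11229 uncalled genes among all genes tested. Heatr5a, a large HEAT-repeat protein, had 1451, 1426 and 1456 normalized counts in Ahr+/+ and 1519, 1585 and 1635 in Ahr-/- mice, and it was called in 2 of the other settings tried and in 1 of the fits without 1 library. Scfd1, a Sec1-family protein of transport between the endoplasmic reticulum and the Golgi, had 2988, 2930 and 3022 against 3108, 3185 and 3053. Adam17, the protease that releases TNF from the cell surface, had 4130, 3757 and 3761 against 3620, 3603 and 3764, with an overlap of a few counts. Kidins220, a membrane scaffold that also binds the B-cell receptor, had 1975, 2077 and 2123 against 1828, 2080 and 1994. Trib2, a pseudokinase that recruits ubiquitin ligases, had 1531, 1330 and 1438 against 1277, 1207 and 1585, and its Ahr-/- replicate 3 was the highest of all 6. Ppp2r3c, a regulatory subunit of PP2A, had 1248, 1064 and 1171 against 1261, 1299 and 1200 and overlapped as well. Snx6, a retromer sorting nexin, Hpcal1, a neuronal calcium sensor, Ywhaq and Pqlc3, a PQ-loop membrane protein, were each within 0.09 of 0 on the log2 scale and overlapped between genotypes.

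Replicates of the 30 members with an Ahr+/+ mean of 100 or more normalized counts varied little; 1700030C10Rik, Greb1, Kcnf1 and Akap6 lie below this mean and are not included. The coefficient of variation over the 3 mice had a median of 4.12% in Ahr+/+, from 0.568% to 8.61% (Cfl2), and a median of 3.81% in Ahr-/- cells, from 1.10% to 14.8% (Trib2).

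Both sides of Ahr held called members. On the low-coordinate side 8 of 20 tested members were called, 4 lower and 4 higher in Ahr-/- cells, and on the high-coordinate side 5 of 14, all lower, beside 17.9% of all genes tested called, 8.13% lower and 9.79% higher. The direction was not compared between sides by a test. Called members lay from 10.88 Mb (Grhl1) to 18.89 Mb (Lpin1) on the low side and from 15.81 Mb (G2e3) to 17.16 Mb (Akap6) on the high side. From Eapp at 19.14 Mb outward, none of the 6 tested high-side members, Eapp, Snx6, Cfl2, Baz1a, Ppp2r3c and Psma6, was called, and the largest log2 fold change among them was 0.11. This holds for listed members only. Among high-side genes outside the list, Egln3 at 18.64 Mb and Srp54a at 19.55 Mb were called higher in Ahr-/- cells. Dtd2 at 16.45 Mb and Nfkbia at 19.95 Mb were called lower. The cluster of Asap2, Itgb1bp1, Cpsf3, Iah1, Adam17 and Ywhaq, between 14.08 and 14.23 Mb on the low side, held 1 called gene, Itgb1bp1.

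The values on either side of the limits of the list are given as a description. Kidins220 at 10.43 Mb had a log2 fold change of -0.06, and its nearest tested neighbour outside, Rnf144a at 9.08 Mb, had -1.26 with 258 ± 6.7 normalized counts in Ahr+/+ and 109.4 ± 17 in Ahr-/- cells (SD, n = 3). Trib2 at 19.68 Mb had -0.08 and Nbas outside it at 21.91 Mb had 0.02. G2e3 at 15.81 Mb had -0.26 and Stxbp6 at 9.32 Mb, the nearest tested gene outside on that side, had 0.34 (SE 0.42). Psma6 at 19.85 Mb had -0.05 and Ralgapa1 at 20.07 Mb had -0.01.

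The list does not hold every gene of its stretches. Of the 31 other genes 15 were tested and 9 were called, 3 lower and 6 higher in Ahr-/- cells, so that 22 of all 49 tested genes between 10 and 20 Mb were called (44.9%). Within 10 Mb of Ahr 10 of 52 tested genes were called (19.2%), beyond 20 Mb on chromosome 12 it was 73 of 358 (20.4%), and on the other autosomes 2251 of 12615 (17.8%). The genes of a stretch share their position and, in part, overlapping transcripts, and no test was made of these shares. Since 34 of these 49 genes are members of the list, nothing is read from the shares.

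**Figure D4:**
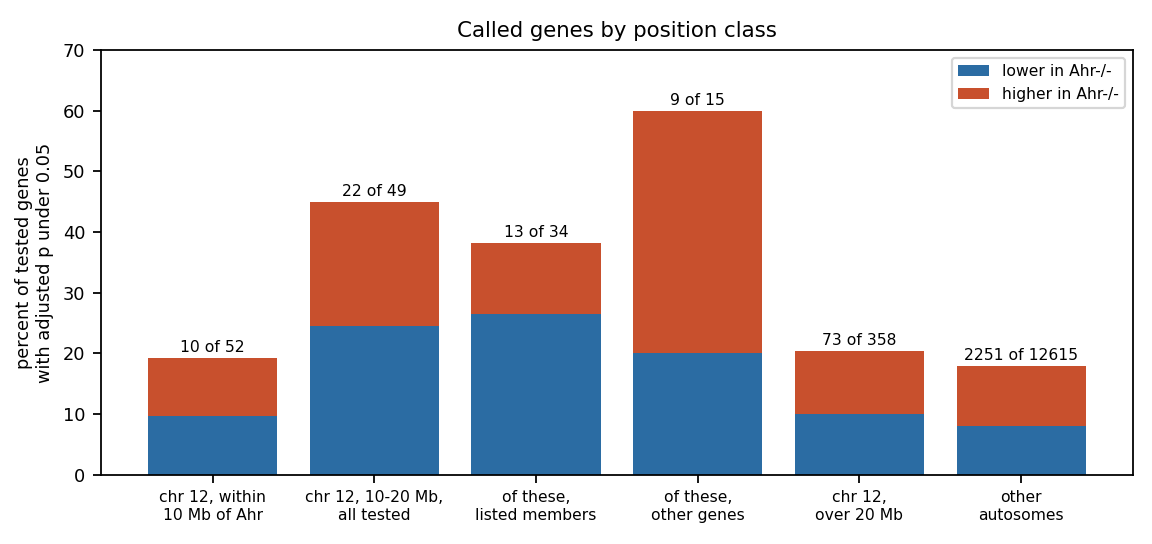
Percent of tested genes with an adjusted p under 0.05 in each position class, stacked as lower (blue) and higher (orange) in Ahr-/- cells, with the number called of the number tested above each bar. All tested genes between 10 and 20 Mb reach 44.9%, the listed members 38.2% and the other genes of the same stretches 60.0%, against 17.8% on the other autosomes.

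The purified cells were checked for other cell types. The 10 B-cell markers, Cd79a and Cd79b among them, were all tested and summed to 3076 to 3308 CPM in Ahr+/+ and 3625 to 3850 CPM in Ahr-/- libraries, with 6 called higher and 1 lower. Over all genes tested, 9.79% were called higher and 8.13% lower. Of 10 plasmacytoid dendritic cell markers 7 were called higher and 1 lower, with sums of 891 to 938 CPM against 1020 to 1052 CPM. Siglech rose from a mean of 1.48 to 7.02 CPM and Irf8, which makes up most of the sum and is also expressed by B cells, from 603 to 765 CPM, while Tcf4 fell from 196 to 122 CPM. Of 8 tested markers of conventional dendritic cells 4 were called higher and 1 lower, with sums of 21.4 to 24.4 against 23.0 to 27.9 CPM. NK-cell markers had 2 of 5 called higher (5.94 to 7.67 against 7.07 to 11.1 CPM), and T-cell markers 1 of 8 called in each direction (157 to 168 against 159 to 184 CPM), a sum that is nearly all Lck, which B cells also express, with means of 155 and 163 CPM. Of the monocyte, macrophage and neutrophil markers 1 of 7 was called in each direction (22.4 to 33.5 against 8.23 to 27.4 CPM). Emr1, which is called lower, went from a mean of 16.9 to 1.41 CPM, and the means of the other 6 were higher in Ahr-/- cells. Plasma-cell markers had 2 of 4 called lower and 1 higher (370 to 526 against 348 to 391 CPM). Erythroid markers stayed at or below 0.445 CPM in sum, with Hba-a1 and Hba-a2 at 0 counts. The part of these cells in the values of the members was not tested.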

How the data were processed

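Polyadenylated RNA of activated splenic B cells (3 Ahr+/+ mice, 3 Ahr-/- mice) was made into libraries with a strand-marking kit. For each library the deposited counts are unnormalized reads per gene symbol, and the submitters' processing notes name TopHat2 (version 2), HTSeq, DESeq and the mm10 build; their order, settings and use of strand are not given in the sources used here. The deposited normalized counts and the table of the authors' own comparison were not used. Genes reaching a total of 10 counts or more were compared between genotypes with the quasi-likelihood test of edgeR 4.0.16 (R 4.3.3, limma 3.58.1), with TMM scaling, genotype as the only term, a prior count of 0.125 for fold changes and Benjamini-Hochberg adjustment over all 13682 genes tested. The common biological coefficient of variation came to 0.048, and the script was tested on simulated data. Symbols were placed with GENCODE M21 on GRCm38, where 23026 of 23420 symbols found a gene, 1276 of them by an older symbol, and exon lengths are the union of all exons. Promoter windows came from RefSeq.

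The members, the function groups and the marker lists were chosen with earlier results of these data known. By the naming rule, every member is named, and values in each mouse are given for Ahr, the called members, the 3 members with the highest Ahr+/+ level and uncalled members with an absolute log2 fold change of at least 1; other members were given such values after these were seen. Of genes outside the list, the called ones of the same stretches are named, and the neighbours at the limits of the list, Cyp1a1 and cell-type markers were added. DESeq2 1.42.0, other scalings and filters, a replicate block and leaving out each library were tried as alternatives. The study describes the libraries of a genotype as coming from 3 mice.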

Additional observations from a re-analysis of the deposited data

How the results depend on the processing

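With scaling by library size alone or by DESeq2's size factors, with every gene kept, with a stricter filter (10 counts or more in 3 or more libraries) or with a robust fit, between 12 and 14 members were called, and between 2400 and 2639 of all genes. The DESeq2 Wald test and the replicate block each gave 2 members called higher in Ahr-/- cells in place of 4, with Kcnf1 and Itgb1bp1 no longer called, and DESeq2 gave no adjusted p for Kcnf1 and Akap6. At an adjusted p under 0.01, 7 members were called, 1 of them higher, and 28.6% of genes between 10 and 20 Mb, 19.2% within 10 Mb (as at 0.05), 11.2% beyond 20 Mb and 10.8% on the other autosomes were called. Cfl2, at 0 in log2 fold change, moved to -0.00433 with DESeq2's size factors, -0.000772 with no filter and -0.00353 with the DESeq2 Wald test. Heatr5a was called with library size alone (0.16) and with the stricter filter (0.13).

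Leaving out 1 library gave 9 to 13 members called, 7 to 10 lower and 2 to 5 higher, a median log2 fold change of -0.0755 to -0.0377, and shares of 33.3% to 44.9% between 10 and 20 Mb, 18.8% to 22.0% within 10 Mb, 14.1% to 21.0% beyond 20 Mb and 12.4% to 19.2% on the other autosomes. The call was kept in all 6 such fits by 9 members, Lpin1, Rock2, Nol10, Odc1, 1700030C10Rik, Grhl1, Strn3, Ap4s1 and Arhgap5. Uncalled members near 0 changed sign: Pqlc3 ran from -0.0555 to 0.0317, Cfl2 ran from -0.0585 to 0.068, Taf1b from -0.0115 to 0.0347, and Trib2 was 0.0109 without Ahr-/- replicate 2 and was called at -0.214 without Ahr-/- replicate 3. The cause was not tested. The number of genes called in all ran from 1664 without Ahr-/- replicate 2, the deepest library, to 2601 without Ahr-/- replicate 3.

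The labels number the replicates alike in both genotypes, but samples of the same number deviated together with correlations of -0.030, 0.12 and -0.045. Not every sample correlated best with its own number. These correlations cannot show whether samples of the same number were handled together, and the labels give only the number. With the replicate block, 11 members and 2303 of all genes were called, against 13 and 2453 without it. The counts of Kcnf1, Akap6, Greb1 and the untested members limit any statement about them.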

Other observations

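Several genes of the same stretches that are not in the list differed between genotypes more than most listed ones. They were looked at after the values of the listed genes were known. Egln3, an oxygen-sensing prolyl hydroxylase that acts on hypoxia-inducible factors (18.64 Mb from Ahr, high-coordinate side), had 56.3, 44.3 and 61.8 normalized counts in Ahr+/+ and 154.5, 160 and 162 in Ahr-/- mice (edgeR adjusted p = 1.1e-05). Dtd2, which removes wrongly attached amino acids from tRNA, lies next to Heatr5a at 16.45 Mb and had 317, 310 and 330 against 170, 170 and 185 (edgeR adjusted p = 2.2e-05). Srp54a, the GTPase subunit of the signal recognition particle, lies at 19.55 Mb and had 868, 842 and 904 against 1325, 1213 and 1142 (edgeR adjusted p = 9.3e-05).

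On the low-coordinate side E2f6, a repressor of the E2F family between Greb1 and Rock2, had 1662, 1601 and 1749 normalized counts in Ahr+/+ and 2181, 2075 and 2065 in Ahr-/- mice (edgeR adjusted p = 0.00019). Id2, an inhibitor of E proteins, was higher in Ahr-/- cells, with 686, 719 and 663 against 872, 832 and 787 (edgeR adjusted p = 0.0082). Pdia6, a disulphide isomerase of the endoplasmic reticulum that overlaps Atp6v1c2, untested for its low counts, had 17700, 18210 and 18150 against 15590, 16250 and 15920 (edgeR adjusted p = 0.0024). Nfkbia, the inhibitor of NF-κB that responds to B-cell receptor signals, had 7143, 7609 and 7115 against 6002, 6293 and 6591 at 19.95 Mb on the high-coordinate side (edgeR adjusted p = 0.0052). In each of these 7 genes the mice of the genotypes did not overlap, beside 33.5% of all genes tested. The 7 were named because they were called, which favours separate groups, so nothing is read from this. The other called genes of the stretches were 2410018L13Rik and 9030624G23Rik, with log2 fold changes of 1.92 and 0.68.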
